A study of Rattus norvegicus with 4 samples.

Results

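The colony-stimulating factors are secreted proteins that direct the growth and survival of myeloid blood cells. The genes described here are the 3 ligand genes Csf1 (M-CSF, the macrophage factor), Csf2 (GM-CSF, the granulocyte and macrophage factor) and Csf3 (G-CSF, the granulocyte factor) and the 4 receptor genes Csf1r, Csf2ra, Csf2rb and Csf3r. They were chosen by symbol, as 7 of the 17778 rows of a table of gene expression. Where a symbol has several rows the highest mean level decides, but each of these 7 symbols had 1 row, so no measured value picked a row. The set was named with earlier results of these libraries known, in which Csf3 and Csf1 differed between the groups, so the tests below are not independent evidence for them.

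CSF1 binds CSF1R, a receptor tyrosine kinase of macrophages and microglia that IL-34 also binds. CSF2 binds its own alpha chain, encoded by Csf2ra, which signals only with the common beta chain encoded by Csf2rb, mainly through JAK2 and STAT5. CSF3 binds CSF3R, which signals as a homodimer through JAK kinases and STAT3 and is best known from the neutrophil lineage. In injured peripheral nerve, neutrophils and macrophages clear debris, and the glia and fibroblasts of the nerve are among the cells that secrete factors acting on them.

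RNA came from RSC96, an established line of rat Schwann cells, at generation 4, kept overnight without serum. Cells then received recombinant rat IL-22 at 100 ng/ml for 48 h, or, as controls, 0.1% bovine serum albumin alone, in which the cytokine had been dissolved. How long the controls were kept in it is not stated. There were 2 libraries per group, and whether they came from separate cultures is not stated, so p-values measure only the spread between these libraries and that spread may be technical. All libraries come from 1 cell line, and the levels are of mRNA, not of secreted protein.

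Levels are in FPKM, which divides the fragments of a gene by its transcript length and by library size. Relative to control library 1, depth read from the spacing of low values was 1.08 in both IL-22 libraries and 1.28 in control library 2, and absolute depth is unknown. The Schwann label was checked against 10 lineage and myelin genes. Of these, 3 reached a mean of 1 FPKM over the 4 libraries. Those were Egr2 (5.11 FPKM with IL-22 and 0.460 FPKM in controls), Erbb3 (1.57 FPKM with IL-22 and 0.752 FPKM in controls) and Gfap (0.653 FPKM with IL-22 and 1.68 FPKM in controls), so each reached 1 FPKM in 1 group only and its groups did not overlap. Sox10, S100b and Ngfr stayed at or below 0.119 FPKM in every library, so most defining markers of the lineage were near 0. The limma test ran on log2(FPKM + 1) for the rows that averaged 1 FPKM or more, and a row was called higher or lower at a Benjamini-Hochberg adjusted p under 0.05 over all 9485 rows tested. Differences are IL-22 minus control on that scale, with limma's standard error, and a fold is mean FPKM over mean FPKM. The smallest p that an exact permutation test of a single gene could give with 2 libraries in each group is 0.333.

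After IL-22 the ligand genes moved in different directions. Csf3 and Csf2, which were near the floor in controls, rose, and Csf1, which was abundant in controls, fell. Among the receptor genes Csf2ra and Csf1r were low and had no call, and Csf2rb and Csf3r were listed at 0 in every library. Of the 7 genes 4 had a mean above the minimum and were tested, and 3 of those were called, 2 higher and 1 lower. Among all tested rows 58.4% were called, 27.6% higher and 30.8% lower, so the number of calls is not a feature of these genes.

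**Figure D1:**
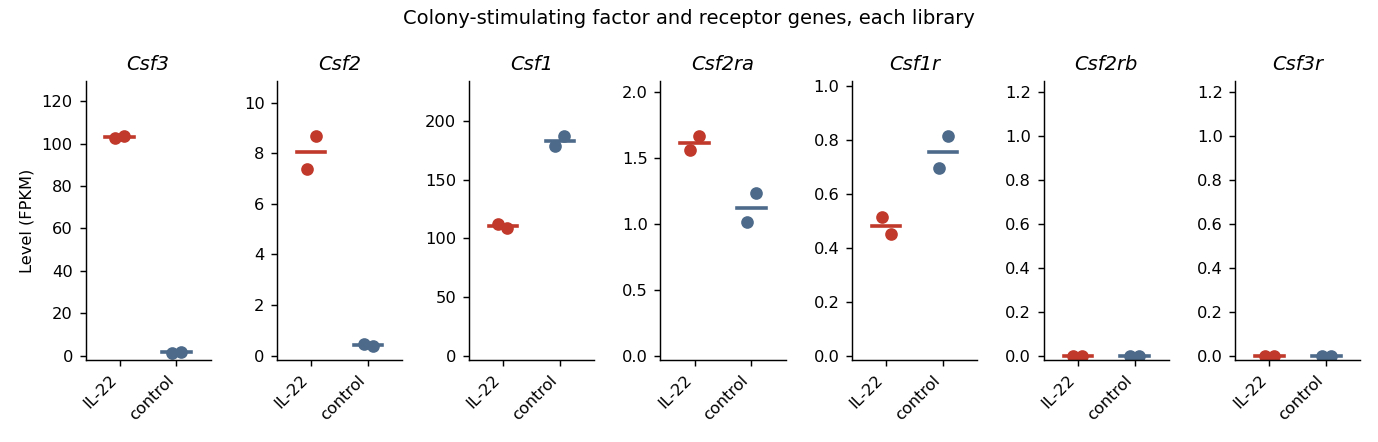
Level in FPKM (linear axes, each with its own range) of the 7 genes in each library, with IL-22 left of control, points for the 2 libraries of a group and lines for their mean. Csf3 sits at 102.6 and 103.6 FPKM with IL-22 and at 1.42 and 1.54 FPKM in controls, while Csf2rb and Csf3r lie at 0 in every library.

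Csf3 measured 102.6 and 103.6 FPKM in the IL-22 libraries, against 1.42 and 1.54 FPKM in the control libraries. Both IL-22 values lay far above both control values, and the libraries of a group differed little. The mean was 103 ± 0.729 FPKM with IL-22 and 1.48 ± 0.0796 FPKM in controls (SD, n = 2 each), a 69.6-fold difference. Csf3 rose by 5.39 ± 0.09 (limma adjusted p = 6.52e-10), placing 2 in the order of upward differences over all tested rows. Its place among the rows detected in a group moved accordingly: with IL-22 it lay above 92.3% of them, and in controls above 23.0%.

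Csf2 measured 7.38 and 8.68 FPKM with IL-22, against 0.465 and 0.362 FPKM in controls, again without overlap. The means were 8.03 ± 0.916 FPKM with IL-22 and 0.414 ± 0.0726 FPKM in controls (SD, n = 2 each), a 19.4-fold difference that rests on a low control level. Csf2 rose by 2.67 ± 0.15 (limma adjusted p = 1.4e-06) and placed 28 in the order of upward differences. The row passed the minimum only through its IL-22 libraries. The size of its difference depends on the pseudocount, at 3.99 with a pseudocount of 0.1 and 1.27 with a pseudocount of 5. Its level exceeded that of 43.3% of detected rows with IL-22, against 15.8% in controls.

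Csf1, which supports macrophages and microglia, measured 112 and 108 FPKM with IL-22, against 178 and 187 FPKM in controls. Both IL-22 values lay below both control values. The means were 110 ± 2.46 FPKM with IL-22 and 183 ± 6.23 FPKM in controls (SD, n = 2 each), and the gene fell by 0.73 ± 0.06 (limma adjusted p = 1.89e-05), which is 1.66-fold. In bulk RNA, fewer cells with the transcript and less of it per cell cannot be told apart. Csf1 placed 694 in the order of downward differences. Csf1 still lay above 92.8% of detected rows with IL-22 and above 95.9% in controls. In RefSeq's GRCr8 gene table a long noncoding RNA gene overlaps the edge of Csf1, and since strand is not stated for these libraries its reads cannot be told apart from those of Csf1 in that stretch.

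The groups did not overlap for any of the 3 ligand genes, which was so for 80.1% of all tested rows. The makeup of the ligand mRNA is given by the ratio of levels per length within a library. Csf1 exceeded Csf3 by 1.09-fold and 1.05-fold in the IL-22 libraries, against 125-fold and 122-fold in the controls. The 2 genes were thus close to equal with IL-22, although the lower Csf1 value, 108 FPKM, was still above the higher Csf3 value, 103.6 FPKM. Csf3 held 46.2% and 47.0% of the summed level of the ligand genes with IL-22, against 0.790% and 0.813% in controls. Csf2 held 3.33% and 3.93% of it with IL-22, against 0.258% and 0.191% in controls. The sum itself was 222 and 221 FPKM with IL-22, against 180 and 189 FPKM in controls, so it differed far less than Csf3 or Csf2 alone.

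**Figure D2:**
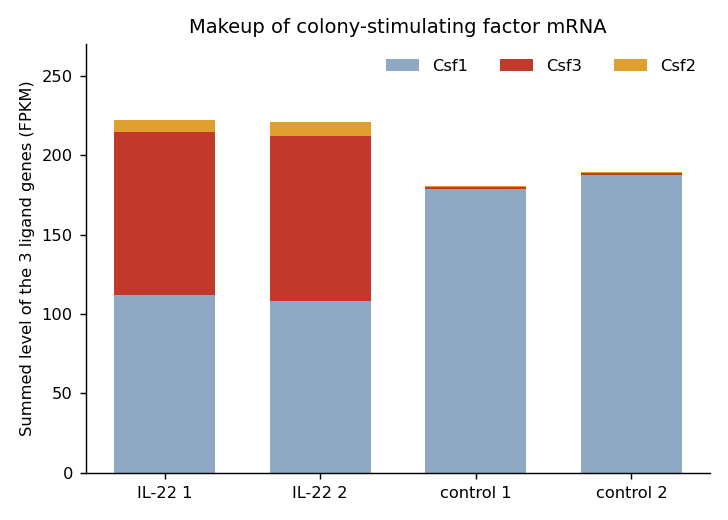
Summed level of Csf1, Csf3 and Csf2 in FPKM (linear axis from 0) in each library, stacked by gene, with the IL-22 libraries on the left. Csf1 makes up 50.4% and 49.1% of the bar with IL-22, against 99.0% and 99.0% in controls, and Csf3 takes most of the rest.

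**Figure D3:**
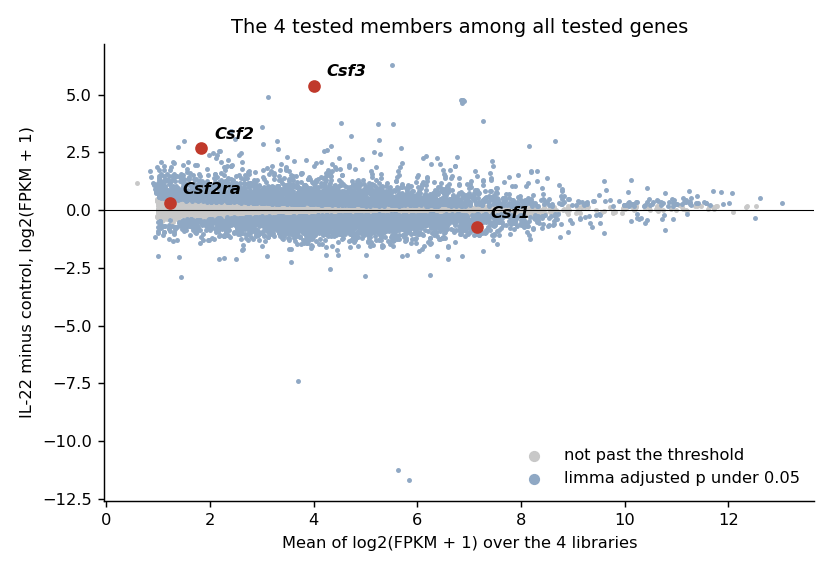
Difference IL-22 minus control against the mean level, both on the log2(FPKM + 1) scale, for the 9485 tested rows, with the 4 tested genes of the set in red. Csf3 lies at 5.39 and Csf2 at 2.67, above most rows of their level, whereas Csf1 lies at -0.73 and Csf2ra at 0.30 within the bulk of the rows.

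The receptor genes were low. Csf2ra, the alpha chain for CSF2, measured 1.56 and 1.67 FPKM with IL-22, against 1.01 and 1.23 FPKM in controls. The libraries did not overlap, but the difference of 0.30 ± 0.16 did not pass (limma adjusted p = 0.136), with a 95% interval from -0.06 to 0.67. Quantile normalization brought that difference to 0.04, and limma without the trend called it (adjusted p = 0.027). Csf1r, the CSF1 receptor, measured 0.514 and 0.449 FPKM with IL-22, against 0.696 and 0.814 FPKM in controls, under the minimum for testing. Its groups did not overlap either, with means of 0.482 ± 0.0457 FPKM with IL-22 and 0.755 ± 0.0832 FPKM in controls (SD, n = 2 each). Csf2rb, the common beta chain that CSF2, IL-3 and IL-5 receptors share, was listed at 0 in all 4 libraries. So was Csf3r, the CSF3 receptor. Since a 0 in a table of FPKM may also be an estimate that failed, these are given only as listed.

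In controls the order of levels was Csf1, Csf3, Csf2ra, Csf1r and Csf2, and with IL-22 it was Csf1, Csf3, Csf2, Csf2ra and Csf1r, followed in each group by the receptor genes listed at 0. No neighbours in either order overlapped between their 2 libraries. Within a library Csf2 stood 4.72-fold and 5.21-fold above Csf2ra with IL-22, against 0.458-fold and 0.295-fold in controls.

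The stretch of DNA ahead of Csf2 is shown because Csf2 rose and because the matching stretch of the human and mouse genes is known to hold sites of NF-kappaB and NFAT. Of the 7 genes, 4 had an entry in RefSeq's GRCr8 promoter table (Csf2, Csf1r, Csf2ra and Csf3r). The 250 bases before the start of Csf2 lie on the minus strand at chr10:38889674-38889923 and are written in the direction of transcription, with motif matches on either strand in capitals.

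Csf2: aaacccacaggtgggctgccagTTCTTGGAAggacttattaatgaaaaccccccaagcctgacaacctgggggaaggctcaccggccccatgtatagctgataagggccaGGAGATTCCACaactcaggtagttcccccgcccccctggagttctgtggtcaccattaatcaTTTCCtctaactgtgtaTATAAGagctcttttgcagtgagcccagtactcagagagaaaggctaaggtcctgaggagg

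From the far end toward the gene the capitals mark a STAT match (TTCNNNGAA, first base 228 bases before the start), an NF-kappaB-like match (GGANNTTCC, 140 bases before) that overlaps the CK-1 element (139 bases before), the NFAT core GGAAA on the opposite strand (78 bases before) and a TATAAG box (61 bases before). CK-1 is a stretch known from the promoters of several colony-stimulating factor genes. Among 27457 such windows of the rat table, CK-1 occurs in 0.747%, the NF-kappaB-like motif in 3.33%, the STAT motif in 7.52%, TATAAG in 7.05% and GGAAA in 56.7%. The letters searched for AP-1 (TGANTCA, in 6.36% of windows) and C/EBP (TTGCNNAA, in 9.20%) are not in this window. These are matches of letters, and no binding was measured. Sites spelled otherwise than the letters searched stay in lower case, and whether the NF-kappaB-like match is the known site was not examined.

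Genes of factors that are known to act on colony-stimulating factor genes were mostly higher. Of 18 tested transcription factor genes 14 were higher and 0 lower by limma, beside 27.6% higher and 30.8% lower over all tested rows. The counts of these 18 genes were the same at an unadjusted p under 0.05, where the share of all rows was not taken. With 58.4% of all tested rows called, both thresholds lie close together, so this is no separate check. Their median difference was 0.58, against -0.02 over all tested rows. Cebpd, a C/EBP factor of the acute-phase response, averaged 108 ± 0.188 FPKM with IL-22 and 12.5 ± 2.03 FPKM in controls (SD, n = 2 each, difference 3.02 ± 0.10, limma adjusted p = 1.13e-07). Nfkbiz, whose nuclear IkappaB protein works with NF-kappaB on secondary response genes, measured 9.73 and 10.2 FPKM with IL-22, against 0.872 and 0.883 FPKM in controls (2.55), and passed the minimum only through its IL-22 libraries. The AP-1 gene Junb (2.12) and the zinc-finger gene Egr1 (1.98) completed the largest differences. Rela, the main activating NF-kappaB subunit, averaged 49.5 ± 0.713 FPKM with IL-22 and 52.1 ± 4.06 FPKM in controls (SD, n = 2 each) and did not pass (-0.07, limma adjusted p = 0.443). The other NF-kappaB subunit genes of the list, Nfkb1 (0.66, limma adjusted p = 0.000105) and Nfkb2 (0.47, limma adjusted p = 0.00081), were higher. Rela, Nfkb1 and Nfkb2 were named after their values were seen.

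The mRNAs of Csf2 and Csf3 carry AU-rich elements and decay quickly in resting cells. Of 16 tested genes of AU-rich and stem-loop mRNA decay 5 were higher and 6 lower (median -0.07), near the 27.6% higher and 30.8% lower of all tested rows. Zc3h12a, which encodes the ribonuclease Regnase-1, measured 29.9 and 29.7 FPKM with IL-22, against 5.65 and 6.01 FPKM in controls (2.17 ± 0.09, limma adjusted p = 2.71e-07). Zfp36, the gene of tristetraprolin, which destabilises Csf2 mRNA in mice, measured 26.6 and 28.9 FPKM with IL-22, against 11.3 and 13.7 FPKM in controls (1.09). Arid5a, which encodes a stabilising protein, also rose (1.09), and Hnrpd, the AUF1 gene, fell (-0.60). The count of lower genes was 3 without IL-22 library 2.

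Among receptors and adaptors through which IL-1, IL-17, TNF and Toll-like receptor ligands induce these factors, 6 were higher and 5 lower of 22 tested (median -0.02), which does not exceed the 27.6% and 30.8% of all tested rows. The largest rises were in the IL-1 receptor family. Il1rl1, the IL-33 receptor gene, measured 139 and 120 FPKM with IL-22, against 57.7 and 57.3 FPKM in controls (1.16), and Il1rap (1.06) and Il1r1 (0.85) rose too. Map3k14, the kinase gene of the noncanonical NF-kappaB pathway, fell (-0.63). The other lower genes, named after their values were seen, were Il17ra (-0.50), Map3k7 (-0.31) and the adaptor and kinase genes Myd88 (-0.47) and Irak1 (-0.47). Myd88 and Irak1 act beneath the IL-1 receptor family, so genes of that pathway did not all rise.

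Signalling genes that act beneath these receptors in myeloid cells gave 14 higher and 4 lower of 23 tested (median 0.36), beside 27.6% higher and 30.8% lower over all tested rows. The STAT3-induced inhibitor gene Socs3 measured 498 and 533 FPKM with IL-22, against 161 and 166 FPKM in controls (1.65), and the ubiquitin ligase gene Cblb (1.03) and the phosphatidylinositol kinase gene Pik3cd (0.98) rose. Socs1 fell (-0.88). The count of lower genes was 2 without IL-22 library 1. In contrast to the widely expressed members, the myeloid signalling genes Syk, Tyrobp and Vav1 were listed at 0 in all libraries.

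Of 17 further haematopoietic growth factor and receptor genes with a row, the test covered 5, with 3 higher and 2 lower, beside 58.4% called over all tested rows. Il11, which encodes a gp130 cytokine that acts on megakaryocytes and stroma, measured 2.87 and 3.63 FPKM with IL-22, against 0.573 and 0.319 FPKM in controls (1.56). It passed the minimum only through its IL-22 libraries. Il3ra, the IL-3 receptor alpha chain, which also needs the chain encoded by Csf2rb, measured 5.34 and 5.52 FPKM with IL-22, against 2.49 and 2.64 FPKM in controls (0.85, limma adjusted p = 0.000365). Crlf2 (0.33) was higher and Kitlg, the stem cell factor gene (-0.32), lower, each with a call lost under 5 of 13 alternatives. Crlf2 lost it without IL-22 library 1, IL-22 library 2 or control library 2 (limma adjusted p = 0.0803, 0.115 and 0.108), and Kitlg when any of the 4 libraries was left out (limma adjusted p from 0.0521 to 0.111). Over all 13 alternatives the adjusted p ran from 0.0191 to 0.115 for Crlf2 and from 0.0161 to 0.111 for Kitlg. Both lost it without the filter, and Crlf2 also with quantile normalization. The count of lower genes in this list was 0 without IL-22 library 1 or control library 1 and 1 without either of the others. The other lower gene, named after its values were seen, was Il11ra1 (-0.28). Il34, the second ligand of CSF1R, and Il3, the neighbour of Csf2 on the chromosome, were listed at 0 in all 4 libraries.

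CSF1 is made as a membrane protein and shed by proteases such as ADAM17. Of 7 tested genes of shedding and processing 2 were higher and 1 lower (median 0.11), beside 27.6% higher and 30.8% lower over all tested rows. Adam17 averaged 14.5 ± 0.599 FPKM with IL-22 and 16.0 ± 0.597 FPKM in controls (SD, n = 2 each) and did not pass (-0.13, limma adjusted p = 0.232). It was named after its values were seen. Of the ADAM17 cofactor genes Rhbdf2 rose (1.20) and Rhbdf1 fell (-0.47), and Adam9 rose (0.39).

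**Figure D4:**
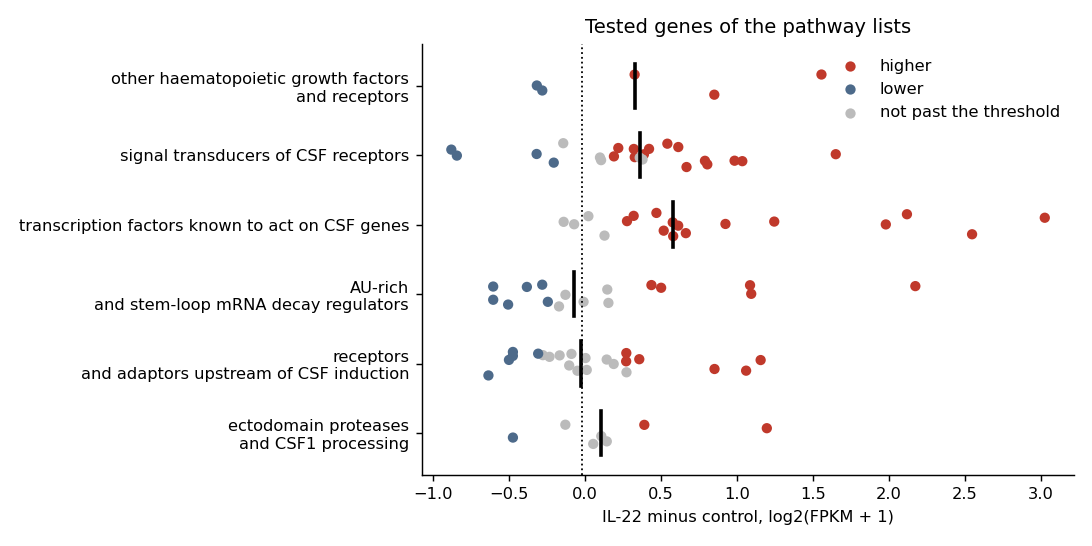
Difference in log2(FPKM + 1), IL-22 minus control, for each tested gene of 6 lists, with the list's median as a bar and the median of all tested rows, -0.02, as a dotted line. The transcription factor list has 14 genes higher and 0 lower, with a median of 0.58, while the decay and upstream lists spread to both sides.

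Most markers of cells on which these factors act were at or near 0. Of the 9 neutrophil markers 9 were listed at 0 in every library, Mpo, Elane, S100a8 and S100a9 among them. Of 13 macrophage markers with a row 4 were listed at 0 throughout, and the list summed to 6.60 and 3.91 FPKM with IL-22, against 4.47 and 4.34 FPKM in controls, mostly Cd14 and Cd68. Ptprc, the pan-leukocyte marker, was at or below 0.0252 FPKM. Of 20 genes that these factors maintain in myeloid cells and that have a row, 12 were listed at 0 in every library. The list holds the receptor genes described above, so the zeros of Csf2rb and Csf3r are counted again here. Csf3r and Csf1r are also among the neutrophil and macrophage markers. The test covered 3 genes (Klf4, Cd68 and Csf2ra). By limma 0 were higher and 0 lower, beside 27.6% higher and 30.8% lower over all tested rows. At an unadjusted p under 0.05, 1 was higher and 0 lower, and the share of all rows at that threshold was not taken. Klf4 averaged 53.0 FPKM with IL-22 and 46.0 FPKM in controls, which is most of the summed level of this list. It gained a call under 4 of 13 alternatives, among them without control library 2. The mast cell list summed to 0 in each library. The T and NK cell list summed to at most 0.621 FPKM and the B cell list to at most 0.110 FPKM in any library. The endothelial list summed to at most 1.90 FPKM in any library. The fibroblast list summed to 160 and 166 FPKM with IL-22, against 205 and 175 FPKM in controls, nearly all of it Col1a2, while Dcn and Lum were listed at 0. Of 3 tested fibroblast markers 1 was higher and 2 lower, beside 27.6% higher and 30.8% lower over all tested rows. Pdgfra was higher, at 10.1 FPKM with IL-22 and 7.79 FPKM in controls (0.33), and Col1a1 (-0.55) and Col1a2 (-0.23) were lower. The part of the fibroblast list in the result for Csf1 was not tested.

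The tested neighbours of Csf3 and Csf2 had smaller differences than those genes, and those of Csf1 were not lower. Beside Csf3 lie Psmd3, a proteasome subunit gene, and Med24, a Mediator subunit gene. Psmd3 measured 195 and 191 FPKM with IL-22 and 174 and 180 FPKM in controls and did not pass (0.12, limma adjusted p = 0.107). Med24 (0.42) and Thra, a thyroid hormone receptor gene (0.58), were higher, and Gsdma (0.39) was higher with a limma adjusted p of 0.0499, a call lost under 8 of 13 alternatives (limma adjusted p from 0.0267 to 0.318 over all 13). Leaving out IL-22 library 1, control library 1 or control library 2 were among these (limma adjusted p = 0.318, 0.122 and 0.151). On the side of Csf2 away from Il3, the collagen prolyl hydroxylase gene P4ha2 measured 71.5 and 74.7 FPKM with IL-22, against 36.9 and 34.1 FPKM in controls (1.02), and Pdlim4 rose as well (0.52). Beyond Il3, Acsl6 was at or below 0.400 FPKM. Around Csf1, Ahcyl1 measured 88.1 and 84.8 FPKM with IL-22 and 80.3 and 75.7 FPKM in controls and did not pass (0.15, limma adjusted p = 0.0882). Gstm5, a glutathione transferase gene with close paralogs beside it whose reads may be split, was higher (0.68). Eps8l3 was listed at 0 throughout. The order of genes is that of GRCr8, while the study used rn5.

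**Figure D5:**
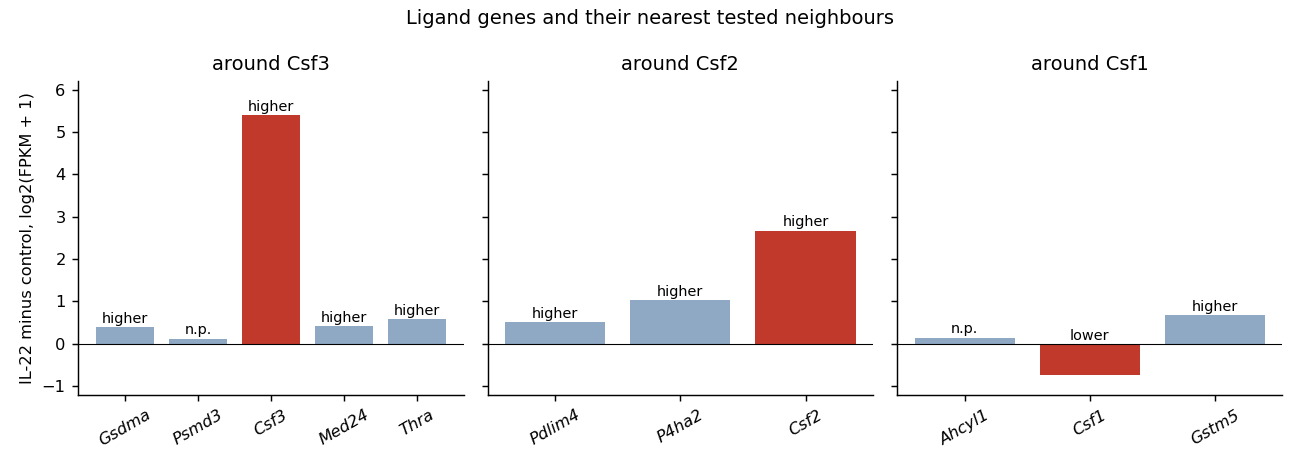
Difference in log2(FPKM + 1), IL-22 minus control, for Csf3, Csf2 and Csf1 (red) and those of the nearest genes on each side that were tested, in chromosome order, with the limma call above each bar (n.p., not past the threshold). Csf3 at 5.39 and Csf2 at 2.67 exceed their neighbours, which reach at most 0.58 and 1.02, and Csf1 at -0.73 stands beside neighbours without a fall past the threshold.

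The tested rows closest to each ligand gene were found by Euclidean distance of log2(FPKM + 1) over the 4 libraries, which combines level and difference. Csf1 was closest to Serpine2 (distance 0.0559), at 110 and 109 FPKM with IL-22 against 177 and 181 FPKM in controls, followed by Eif4g2 (0.0836), Cadm1 (0.124) and Ahsa1 (0.186). Csf2 was closest to Gpr4 (distance 0.128), at 6.82 and 8.80 FPKM with IL-22 against 0.467 and 0.291 FPKM in controls, followed by Rnase4 (0.508), Cxcl6 (0.580) and Ankrd37 (0.714). Their control means were 0.379, 0.729, 0.793 and 0.933 FPKM in that order. Like Csf2 they passed the minimum only through their IL-22 libraries, so the filter took part in the choice of these rows. Csf3 had no row as close. Its nearest was Trib3 (distance 1.95), at 85.2 and 84.2 FPKM with IL-22 against 6.21 and 4.38 FPKM in controls, followed by Ybx1 (2.08), Bhlhe40 (2.61) and Bcl3 (2.68). Ybx1 is uncertain, since its pseudogene row Ybx1-ps3 measured 925 and 962 FPKM with IL-22 and 1007 and 1078 FPKM in controls, and reads may be split between such copies. Ybx1 also passed the minimum only through its IL-22 libraries, with a control mean of 0.763 FPKM.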

How the data were processed

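Libraries were made from poly(A) RNA for an Illumina HiSeq, per the labels' protocols. As deposited by the authors, values are FPKM for genes with a column for each library. The submitters' processing notes name TopHat2, Cuffdiff and the build rn5. Versions, annotation, filters, scaling and strand were not given in the sources used here. A table of lncRNAs with identifiers only was not used.

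Since FPKM are no counts, limma 3.58.1 (R 4.3.3) was fitted to log2(FPKM + 1) of the rows averaging 1 FPKM or more, two-sided, with an eBayes trend and no covariates. The differences understate changes of low genes. The summed FPKM were 658909 and 669549 with IL-22 and 636818 and 630119 in controls, with 11641, 11617, 11196 and 11412 rows above 0 in that order. Relative depth came from the commonest ratio of rows under 0.15 FPKM, and no counting interval can be given.

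The genes, lists and tests were chosen with earlier results of these data known. Named are the 7 genes, from each list the 4 called members with the largest differences at most, or 2 by level in a list without calls, the 4 closest rows per tested ligand gene, and the nearest 2 named neighbours with a row. Some genes that the rule takes are left out here. Any other gene is said to have been chosen later, or stands as a marker or as listed at 0. Lists are described by counts and medians, with no set test. Symbols were matched as written or through a RefSeq synonym. Alternatives were other pseudocounts, filters, scalings and eBayes settings, the replicate number as a block, and leaving out each library, where the lone library is assumed to vary like the other group. Figures used Python 3.11.15 and matplotlib 3.10.9.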

Additional observations from a re-analysis of the deposited data

How the results depend on the processing

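The calls of Csf3, Csf2 and Csf1 held under each of 13 alternatives, with differences from 4.06 to 6.03, from 1.27 to 3.99 and from -0.76 to -0.69, and limma adjusted p of at most 0.000551, 0.00241 and 0.00332. Leaving out a library gave 5.36 to 5.42 for Csf3, 2.57 to 2.78 for Csf2, -0.76 to -0.69 for Csf1 and 0.23 to 0.38 for Csf2ra. Csf2ra gained a call under 1 alternative, limma without the trend, at an unchanged difference of 0.30. Over the 13 its difference ran from 0.04 to 0.49 and its adjusted p from 0.027 to 0.841. Csf1r, tested once the minimum was lowered to 0.1 FPKM or dropped, measured -0.24 (limma adjusted p = 0.138 and 0.0543). Leaving out a library gave 2120 to 2281 genes higher and 2361 to 2491 lower, against 2619 and 2918 with all libraries. Same-numbered libraries did not deviate together (correlation -0.00197 over 9485 rows). A pairing with a small shared effect could give the same value, so whether they were handled as pairs stays unknown. With the replicate number as a block 2755 genes were higher and 3070 lower, with Csf3 at 5.39, Csf2 at 2.67, Csf1 at -0.73 and Csf2ra at 0.30. Of 572 values of 44 named genes outside the set, 18 lost a call, 5 gained one and 0 reversed. The unknown depth limits what can be said of the genes listed at 0.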
